A study of Mus musculus with 21 samples.

Results

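The calponin family of the mouse, the 3 genes Cnn1, Cnn2 and Cnn3, was described in 3 populations of blood-forming bone marrow cells that either carried or lacked the cohesin subunit gene Stag2. The members were taken by name, 3 of the 30733 rows of the deposited count table, and the family was selected on its measured Cnn3 counts, already known to be lower in the Stag2-deficient libraries of all 3 populations. The Cnn3 difference between genotypes is therefore given as a description without a p-value. The question asked of the other members was whether their counts were higher where Cnn3 was lower.

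Calponins are actin-binding proteins. Each has one calponin homology domain followed by short calponin-like repeats, and binding to actin filaments slows the actin-activated ATPase of myosin and stabilises the filaments. Cnn1, basic calponin, is the smooth muscle member and a marker of differentiated smooth muscle. Cnn2, neutral calponin, is the member found in many non-muscle cells, including blood cells of the myeloid line, where it is known for roles in adhesion and migration. Cnn3, acidic calponin, is found in brain, in embryonic tissues and in several non-muscle cell types, where it associates with stress fibres.

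RNA was sequenced from Stag2 KO and Stag2 WT cells of each population, sorted after depletion of lineage-positive bone marrow cells. LSK cells, the fraction that holds the blood stem cells, gave 3 KO and 4 WT libraries. GMP, the granulocyte and macrophage progenitors, gave 4 KO and 3 WT libraries, and CFU-E, committed red cell progenitors, also gave 4 KO and 3 WT libraries. The labels give the genotype as Stag2KO or Stag2WT. They name no allele, Cre driver or age. They do not say that replicates came from separate animals, so a p-value measures only the spread between these libraries. LSK libraries were full-transcript libraries and the GMP and CFU-E libraries were 3′ end libraries, so a difference in level between LSK and the other populations cannot be told apart from the library kit.

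Library totals ran from 22813333 to 32196233 counts in LSK. They ran from 1250683 to 3471881 in GMP KO and from 3732769 to 4401993 in GMP WT, and from 3654667 to 5550165 in CFU-E KO and from 3737659 to 5210879 in CFU-E WT. Stag2 itself averaged 64.2 ± 15.7 CPM, the count scaled to library size, in CFU-E KO and 141 ± 17.7 CPM in CFU-E WT, and KO and WT libraries did not overlap in CFU-E or in LSK. In GMP it averaged 106 ± 30.4 CPM in KO and 147 ± 51.2 CPM in WT with overlapping libraries (log2 fold change −0.47, edgeR adjusted p = 0.36), so in GMP this gene does not separate the labelled genotypes. Where the deletion lies is not stated. In CFU-E, also 3′ end libraries, Stag2 did separate the genotypes (log2 fold change −1.13, edgeR adjusted p = 0.0143). Why the GMP libraries overlapped was not tested. Marker sums followed the sort: the 8 GMP markers summed to 22046 to 45831 CPM in GMP KO and to 33719.8 to 55484 CPM in GMP WT, and the 10 CFU-E markers to 7557 to 8166 CPM in CFU-E KO and to 6489 to 7497 CPM in CFU-E WT. LSK libraries held 5557 to 15857 CPM of GMP markers in KO and 10632 to 18293 CPM in WT, beside 2335 to 2690.3 CPM of LSK markers in KO and 1788 to 2594 CPM in WT.

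The sequence upstream of each member is shown because the 3 genes, although related in their coding sequence, were used very differently in these cells. Each run is RefSeq sequence on the plus strand of GRCm38.p6 and covers bases 250 to 45 before the RefSeq start, a window of 206 bases that ends ahead of every annotated start of the 3 genes. Capitals mark matches to the motifs searched, on both strands. These were the CArG box bound by serum response factor and the CCAAT box. GGGCGG was searched as the GC box. The TATA box was searched as TATAAA. For GATA factors the search took AGATAA and also TGATAA. The core of the CTCF motif was searched as AGGNGGC.
Cnn1, chr9:22099003-22099208: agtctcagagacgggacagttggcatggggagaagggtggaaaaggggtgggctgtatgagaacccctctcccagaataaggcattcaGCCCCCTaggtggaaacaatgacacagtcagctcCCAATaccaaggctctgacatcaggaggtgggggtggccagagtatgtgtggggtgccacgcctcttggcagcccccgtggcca
Cnn2, chr10:79988350-79988555: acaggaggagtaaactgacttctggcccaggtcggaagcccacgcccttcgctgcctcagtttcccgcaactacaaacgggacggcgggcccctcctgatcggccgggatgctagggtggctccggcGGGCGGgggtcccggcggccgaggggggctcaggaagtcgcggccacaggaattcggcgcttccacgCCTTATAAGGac
Cnn3, chr3:121426291-121426496: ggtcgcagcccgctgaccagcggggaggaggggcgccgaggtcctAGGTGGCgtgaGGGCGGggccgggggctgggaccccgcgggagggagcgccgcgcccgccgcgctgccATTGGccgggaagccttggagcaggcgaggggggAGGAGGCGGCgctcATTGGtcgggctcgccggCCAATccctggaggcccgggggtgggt

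Only the Cnn2 window among these 3 held a CArG box, CCTTATAAGG, from 56 to 47 bases before the start, and 1.2% of 32851 promoters of the same window hold one. CCAAT was matched 3 times in Cnn3 and 1 time in Cnn1, against 29.3% of all promoters with at least 1 match. The GC box was matched 1 time each in Cnn2 and Cnn3 (25.8% of all promoters). The AGGNGGC core was matched 3 times in Cnn3, where 2 matches overlap and are written as one run of capitals, and 1 time in Cnn1 (20.3% of all promoters). TATAAA, in 9.38% of promoters, and the GATA motif, in 14.5%, were not matched in any of the 3 windows. The Cnn3 window was 78.6% G or C, the Cnn2 window 67.5% and the Cnn1 window 58.7%, against a median of 51.9% over all promoters. A match describes the letters in these windows and no binding was measured. A longer search over all 250 bases, made first, added 1 CCAAT match in Cnn1, 1 in Cnn2 and 1 GC box match in Cnn2.

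The members share only short exact runs of coding sequence. The coding sequences of Cnn3 and Cnn2 were identical at 70.7% of 905 aligned bases, those of Cnn3 and Cnn1 at 71.8% of 880, and those of Cnn2 and Cnn1 at 68.1% of 880. The longest exact run shared by any pair of whole transcripts, untranslated parts included, was 23 bases, between Cnn3 and Cnn1. The 60 coding bases most alike in all 3 members are shown, with capitals at the bases that differ from Cnn3.
Cnn3, coding bases 598 to 657: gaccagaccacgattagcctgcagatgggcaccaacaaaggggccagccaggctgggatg
Cnn2, coding bases 604 to 663: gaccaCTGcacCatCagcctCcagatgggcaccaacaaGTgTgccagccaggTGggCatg
Cnn1, coding bases 598 to 657: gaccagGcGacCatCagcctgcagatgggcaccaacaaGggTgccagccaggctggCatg

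Of these 60 bases, 47 were identical in all 3 members. Cnn2 differed from Cnn3 at 12 of them and Cnn1 differed from Cnn3 at 7. Counts that Cnn2 might share with its pseudogene Cnn2-ps were not analysed here.

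Cnn3 was low in every Stag2 KO library and well expressed in the WT libraries of LSK and CFU-E. In LSK it stood at 5.1, 5.1 and 6.8 CPM in the KO libraries, against 23.8, 30.4, 28.2 and 25.6 CPM in the WT libraries. Every KO library lay below every WT library, as did those of 4.63% of all genes tested in LSK. The mean was 5.67 ± 0.979 CPM in KO (SD, n = 3) and 27.0 ± 2.91 CPM in WT (SD, n = 4), a KO level of 21% of WT and a log2 fold change of −2.25 ± 0.185 (SE, 95% interval −2.67 to −1.83).

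In GMP, Cnn3 was close to the limit of detection in KO. The KO libraries held 2, 2, 0 and 1 counts, which is 1.49, 0.562, 0 and 0.338 CPM, and the WT libraries held 22, 21 and 26 counts, which is 5.15, 6.03 and 6.89 CPM. All 4 KO libraries were at or below 3 counts, the most that a library truly at 0 would be taken to allow, and none overlapped WT (8.46% of genes tested in GMP). Pooled over libraries, 5 of 10896242 counts in KO and 69 of 12288123 counts in WT give a rate ratio of 0.0817, with an exact 95% interval of 0.0257 to 0.2 that covers counting error only. Cnn3 passed the low-count filter through its WT libraries alone, here and in CFU-E. The fitted log2 fold change was −3.62 ± 0.629 (95% interval −4.95 to −2.29). Cnn3 was at 1 count in the fourth KO library, whose Stag2 level of 150.2 CPM lay within the WT range of 98.3 to 200.4 CPM.

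In CFU-E the difference was widest on the log scale. Cnn3 stood at 0.408, 1.31, 1.24 and 0.798 CPM in the KO libraries, from 2, 7, 6 and 3 counts, against 29.9, 31.5 and 31.4 CPM in the WT libraries, from 127, 162 and 116 counts. The WT libraries agreed closely and all KO libraries lay far below them (non-overlap with KO lower: 5.66% of genes tested in CFU-E). The mean was 0.938 ± 0.419 CPM in KO (SD, n = 4) and 30.9 ± 0.885 CPM in WT (SD, n = 3), so that KO held 3.03% of the WT level. The pooled rate ratio was 0.031 (18 against 405 counts, exact 95% interval 0.0182 to 0.0496, counting error only), and the fitted log2 fold change was −5.10 ± 0.33 (95% interval −5.81 to −4.38). It moved to −6.15 without WT library 3 and was −6.16 on the first flow cell alone (1 KO and 2 WT libraries). In bulk libraries, fewer cells that express a gene and less of its RNA per cell cannot be told apart.

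Marker sums of other cell types did not overlap between genotypes for megakaryocyte markers in LSK and GMP and stromal markers in LSK, and overlapped for stromal markers in GMP and B cell markers in LSK. The 14 megakaryocyte markers summed to 487 to 701 CPM in LSK KO and to 353 to 457 CPM in LSK WT, and to 107 to 139 CPM in GMP KO and to 76.1 to 105 CPM in GMP WT. The 12 stromal markers summed to 172 to 221 CPM in LSK KO and to 94.8 to 149 CPM in LSK WT, and to 20.3 to 32.1 CPM in GMP KO and to 30.5 to 37.9 CPM in GMP WT. The 6 B cell markers summed to 68.2 to 128 CPM in LSK KO and to 101 to 281 CPM in LSK WT. A sum is weighted towards its most abundant genes, and the single markers went both ways in 2 of these 3 lists. Of the markers tested in LSK, 7 of 13 megakaryocyte, 5 of 10 stromal and 0 of 6 B cell genes were higher in KO. Their median log2 fold changes were 0.55, −0.01 and −1.9. edgeR called 0 genes of these lists in either population, beside 14 of all 17664 genes tested in LSK and 145 of 9969 in GMP. Unadjusted p-values under 0.05 in LSK numbered 8, 4 and 4, beside 1392 over all genes. DESeq2 called 5, 3 and 4 in LSK, beside 342 over all genes. In GMP 1 megakaryocyte marker and no other had an unadjusted p under 0.05, beside 1789 over all genes, and DESeq2 called 0 of the lists. The part of these differences in the Cnn3 values was not tested.

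**Figure D1:**
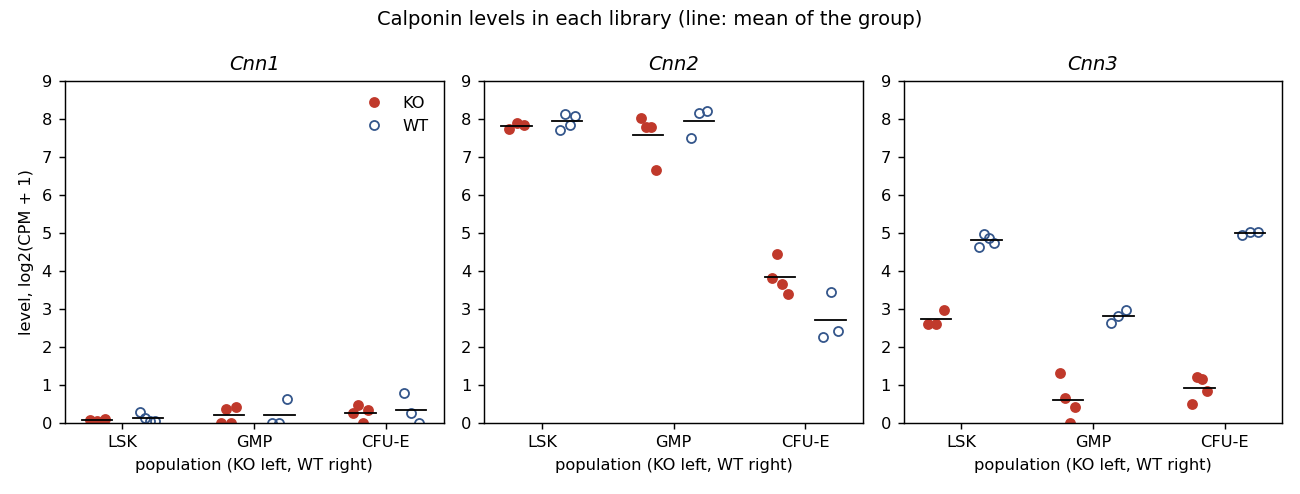
Level of each calponin in each library, as log2(CPM + 1), with KO (filled) left of WT (open) in each population and a line at the group mean of the plotted values. Cnn1 lies near 0 throughout, Cnn2 is high in LSK and GMP and low in CFU-E, and Cnn3 is lower in every KO library than in every WT library of its population.

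Cnn2 was the leading calponin of LSK and GMP and did not pass the threshold (adjusted p under 0.05 over all genes) in any of the 3 populations. The percentage of genes that did was 0.0793% for LSK, 1.45% for GMP and 1.06% for CFU-E. In LSK, Cnn2 stood at 210.4, 237 and 230.2 CPM in KO, against 208, 282, 227 and 268 CPM in WT. The KO libraries lay within the WT range, with a log2 fold change of −0.13 ± 0.14 (95% interval −0.44 to 0.19, edgeR adjusted p = 0.89). Leaving out WT libraries 2 and 4, which held the highest Cnn2 levels, turned the value to 0.07. The GMP marker sums of these libraries were 10951 and 16667 CPM, and WT library 3, with the highest sum of 18293 CPM, held 227 CPM of Cnn2; the part of the markers in the Cnn2 values was not tested.

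In GMP, Cnn2 stood at 262, 222, 220.2 and 100.5 CPM in KO, against 179.6, 286 and 295 CPM in WT. The fourth KO library was the lowest of all 7 and the groups overlapped, with a log2 fold change of −0.33 ± 0.291 (95% interval −0.95 to 0.28, edgeR adjusted p = 0.546). The upper ends of these intervals correspond to a KO level 1.14 times that of WT in LSK and 1.22 times in GMP.

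In CFU-E, where Cnn2 was scarce, its values leaned upwards in KO without passing the threshold. It stood at 13.0, 20.9, 11.6 and 9.58 CPM in the KO libraries, from 64, 112, 56 and 36 counts, against 3.77, 9.92 and 4.33 CPM in the WT libraries, from 16, 51 and 16 counts. KO libraries 1, 2 and 3 lay above all WT libraries, and KO library 4 lay just below WT library 2. The fit gave a log2 fold change of 1.27 ± 0.429, a fold of 2.41 with a 95% interval of 1.27 to 4.57. By edgeR the unadjusted p was 0.011 and the adjusted p was 0.255; an unadjusted p under 0.05 with KO higher was reached by 5.18% of genes tested. The adjusted p was 0.0119 when genes with low counts were kept in the fit and 0.995 when WT library 3 was left out, which moved the log2 fold change to 0.89. Within the sequencing flow cells named in the labels, the log2 fold change was 0.88 ± 0.446 on the first (1 KO and 2 WT libraries) and 1.70 ± 0.55 on the second (3 KO and 1 WT).

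Marker sums also differed with genotype in the CFU-E libraries. The 14 megakaryocyte and platelet markers summed to 669 to 1401 CPM in KO and to 183 to 409 CPM in WT; 11 were tested and 5 rose, Ppbp, Itga2b, Itgb3, Gp5 and Plek, beside 1.06% of all genes past the threshold in either direction, while Tubb1, a platelet tubulin, was at 0 in every CFU-E library. Ppbp, a platelet chemokine, averaged 25.7 ± 15.7 CPM in KO and 2.79 ± 1.98 CPM in WT (log2 fold change 3.45, edgeR adjusted p = 0.0128). Within KO, library 2 was the highest in Cnn2 and in the megakaryocyte sum, and within WT library 2 likewise. WT library 2 was also the highest WT library in GMP markers (137 CPM) and in stromal markers (10.3 CPM). Among KO libraries, library 1 was the highest in both, at 150.2 and 26.1 CPM. The 12 stromal and endothelial markers summed to 14.4 to 26.1 CPM in KO and to 8.93 to 10.3 CPM in WT. The 8 GMP markers, from a population rich in Cnn2, summed to 30.3 to 150.2 CPM in KO and to 62 to 137 CPM in WT, ranges that overlapped. The 10 CFU-E markers summed to 7557 to 8166 CPM in KO and to 6489 to 7497 CPM in WT, higher in every KO library. Singly, 5 of the 10 were higher in KO, with a median log2 fold change of −0.02. The 1 that passed the threshold was Hbb-b1, an adult beta globin. It stood at 115 ± 19.6 CPM in KO, against 308 ± 55.2 CPM in WT (log2 fold change −1.39, edgeR adjusted p = 0.00113). The part of these differences in the Cnn2 values was not tested.

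Cnn1 was barely detected and failed the low-count filter in all 3 populations. It had 28 counts over all 21 libraries and was at or below 3 counts in 20 of them, with 0 counts in 6. The highest count was 7, in LSK WT library 1. Pooled counts were 5 in LSK KO and 11 in LSK WT, 2 in GMP KO and 2 in GMP WT, and 4 in CFU-E KO and 4 in CFU-E WT. With the filter removed, the LSK log2 fold change was −0.74 ± 1.06 (95% interval −3.04 to 1.56, edgeR adjusted p = 0.878). The CFU-E interval ran from −3.42 to 3.63 and the GMP interval from −3.91 to 3.87, so a difference of several fold in either direction was not detectable at this depth.

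**Figure D2:**
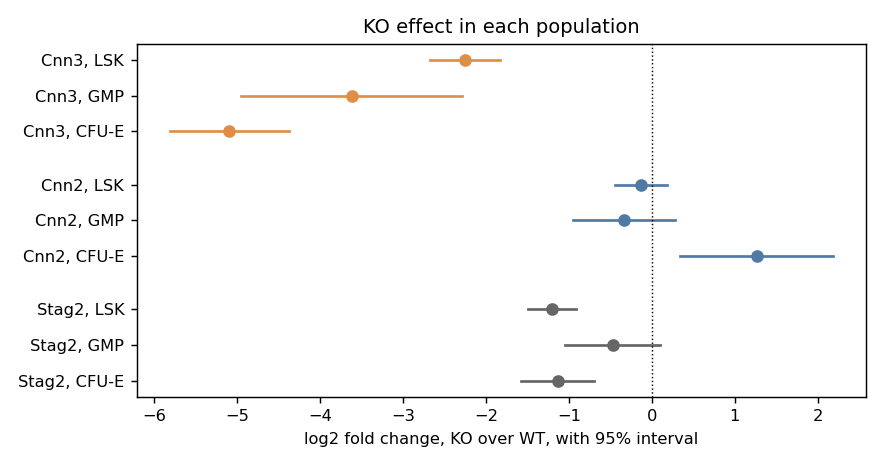
Log2 fold change of KO over WT with its 95% interval for Cnn3, Cnn2 and Stag2 in each population, from the edgeR fits. Cnn3 lies between −2.25 and −5.10, the Cnn2 intervals of LSK and GMP include 0, and the Cnn2 interval of CFU-E runs from 0.34 to 2.19.

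The differences between populations were fitted as interactions. For Cnn3 they are given without a p-value, since they come from the KO and WT values on which the family was selected. The log2 fold change in LSK minus that in CFU-E was 2.83 ± 0.387 (95% interval 2.0 to 3.65), and it ran from 2.42 to 3.97 with single libraries left out. CFU-E minus GMP was −1.38 ± 0.9 (95% interval −3.26 to 0.49), and it moved to −2.48 without CFU-E WT library 3 and to −0.84 without GMP KO library 1. LSK minus GMP was 1.52 ± 0.621 (95% interval 0.21 to 2.83), from 1.03 to 2.10 with single libraries left out.

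The Cnn2 effect did not pass in any of the 3 interactions. CFU-E minus GMP was 1.66 ± 0.547 (95% interval 0.53 to 2.80, edgeR unadjusted p = 0.00624, adjusted p = 0.222; 0.445% of genes passed), and the adjusted p was 0.00463 when genes with low counts were kept. LSK minus CFU-E was −1.43 ± 0.477 (edgeR adjusted p = 0.441; 0.0425% of genes passed). LSK minus GMP was 0.28 ± 0.374 (edgeR adjusted p = 0.835), in a comparison where edgeR called 0 genes, 1732 had an unadjusted p under 0.05 and DESeq2 called 61. These comparisons share libraries with each other and with the comparisons within populations.

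In WT cells Cnn2 and Cnn3 were ordered in opposite ways between the populations sequenced with the same kit. Cnn3 averaged 30.9 ± 0.885 CPM in WT CFU-E and 6.02 ± 0.868 CPM in WT GMP (SD, n = 3 each; log2 fold change 1.98 ± 0.317, edgeR adjusted p = 1.37e-05). Cnn2 averaged 6.01 ± 3.4 CPM in WT CFU-E and 253 ± 64.1 CPM in WT GMP, 46.4-fold lower in CFU-E by the fit (log2 fold change −5.54 ± 0.394, edgeR adjusted p = 3e-11). In this comparison 46.9% of genes passed the threshold. WT LSK, from the other kit, stood at 27.0 ± 2.91 CPM for Cnn3 and 246 ± 34.5 CPM for Cnn2. The Cnn2 ranges of WT LSK and WT GMP overlapped, whereas the Cnn3 level of WT LSK lay above that of WT GMP in every library, and no test was made across kits.

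In WT cells the leading calponin was Cnn2 in LSK and GMP and Cnn3 in CFU-E, whereas in KO cells it was Cnn2 in all 3 populations. Per kilobase of exon, Cnn2 stood at 91.8 CPM in LSK KO and 100.1 in LSK WT, and Cnn3 at 2.77 in LSK KO and 13.2 in LSK WT. In CFU-E, Cnn2 stood at 5.6 CPM per kilobase in KO and 2.44 in WT, and Cnn3 at 0.458 in KO and 15.1 in WT. The exon lengths were close, 2.46 kb for Cnn2 and 2.049 kb for Cnn3. In 3′ libraries the count does not grow with length, so CPM without the correction also bears comparison there.

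Of all calponin counts in CFU-E, Cnn2 took 92.1% ± 2.55 in KO and 15.6% ± 7.12 in WT, and Cnn3 took 6.49% ± 2.83 in KO and 83.5% ± 6.79 in WT (SD, n = 4 KO and 3 WT). In LSK, Cnn2 took 97.5% ± 0.393 in KO and 90.0% ± 0.983 in WT, and in GMP 99.6% ± 0.294 in KO and 97.6% ± 0.361 in WT. A lower Cnn3 raises the Cnn2 share by arithmetic alone, so the summed level was set beside it. The sum also holds the Cnn3 values on which the family was selected, and Cnn3 was most of it in CFU-E WT. A lower sum in CFU-E KO therefore follows in part from that selection and is a description only. In CFU-E the 3 members together stood at 14.9 ± 5.28 CPM in KO (range 10.6 to 22.6) and 37.2 ± 3.86 CPM in WT (range 34.4 to 41.6), and the groups did not overlap. The mean Cnn3 difference, KO minus WT, was −30.0 CPM and that of Cnn2 was 7.77 CPM. The sum was 232 ± 14.2 CPM in LSK KO and 273 ± 36.4 CPM in LSK WT, and 202 ± 70.2 CPM in GMP KO and 259.7 ± 65.1 CPM in GMP WT, with overlapping libraries in both populations.

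**Figure D3:**
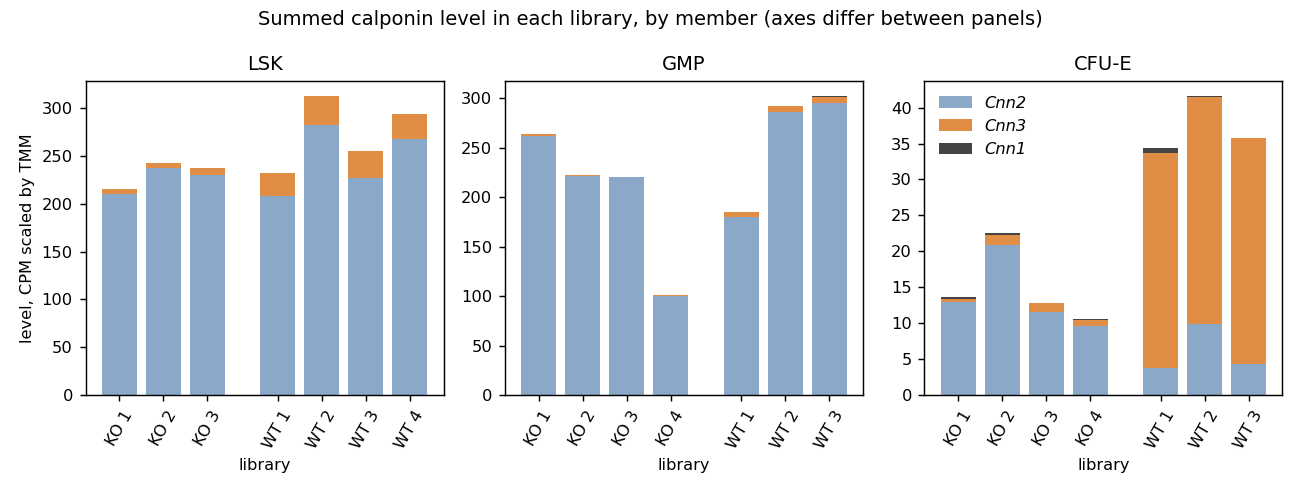
Summed level of the 3 calponins in each library in CPM, split into Cnn2, Cnn3 and Cnn1, with KO libraries left of WT and a separate axis for each population. In LSK and GMP nearly all of each bar is Cnn2, whereas the CFU-E bars are mostly Cnn2 in KO and mostly Cnn3 in WT, and the KO bars, at most 22.6 CPM, end below the WT bars, at least 34.4 CPM.

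The wider lists of calponin-related and actin genes are read against the 0.0793% of all genes past the threshold for LSK, 1.45% for GMP and 1.06% for CFU-E, shares at which lists of this size would usually hold few or none. None of the genes with a single calponin homology domain passed the threshold by edgeR, although 17 of the 20 were tested for LSK and 12 each for GMP and CFU-E. Their median log2 fold changes were 0.06, 0.13 and 0.03, against medians over all genes of 0.00, 0.02 and 0.00. At an unadjusted p under 0.05 there were 1 for LSK, 2 for GMP and 0 for CFU-E, and neither DESeq2 nor limma-voom called any. Over all genes, 1392 of 17664 in LSK, 1789 of 9969 in GMP and 999 of 10170 in CFU-E had an unadjusted p under 0.05. Of 15 non-muscle actomyosin genes, 15 were tested for LSK and 14 each for GMP and CFU-E, and edgeR called 0. Of those tested, 1, 6 and 2 had an unadjusted p under 0.05 in LSK, GMP and CFU-E, beside the same counts over all genes. DESeq2 called 1, 0 and 1, beside 342, 300 and 182 over all genes, and limma-voom called 0.

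Of 18 smooth muscle contractile genes, 14 were tested for LSK, 7 for GMP and 8 for CFU-E, and the 1 that passed was Synpo2 in CFU-E. Synpo2, also called myopodin, is an actin-bundling protein of the muscle Z-disc. It fell to 0.0665 ± 0.133 CPM in CFU-E KO, from 1 count in 4 libraries, against 4.59 ± 0.757 CPM in CFU-E WT, from 61 counts in 3 libraries (log2 fold change −5.82 ± 0.831, edgeR adjusted p = 0.0027). It passed the low-count filter through its WT libraries alone, so its p-value is a description and no independent support. Without WT library 3 its edgeR adjusted p was 0.171, and with a replicate block it was 0.145. Synpo2 averaged 1.45 ± 0.664 CPM in LSK KO and 4.09 ± 2.76 CPM in LSK WT (edgeR adjusted p = 0.522) and failed the filter in GMP. edgeR called 0 genes of this list in LSK and GMP, where 1 and 2 had an unadjusted p under 0.05 and neither DESeq2 nor limma-voom called any. In CFU-E 6 of the 8 genes tested were higher in KO, and 4 had an unadjusted p under 0.05, beside 999 of all 10170 genes. These were Synpo2, lower in KO, and Mylk, Cald1 and Srf, higher in KO with log2 fold changes of 1.26, 2.18 and 0.38. Srf, which encodes serum response factor, stood at 87.7 ± 9.33 CPM in CFU-E KO and 64.9 ± 2.12 CPM in CFU-E WT (log2 fold change 0.38, edgeR adjusted p = 0.413). In GMP it went the other way, at 67 ± 32 CPM in KO and 122 ± 31 CPM in WT (log2 fold change −0.88, edgeR adjusted p = 0.207). In LSK its log2 fold change was 0.18 (edgeR adjusted p = 0.899).

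**Figure D4:**
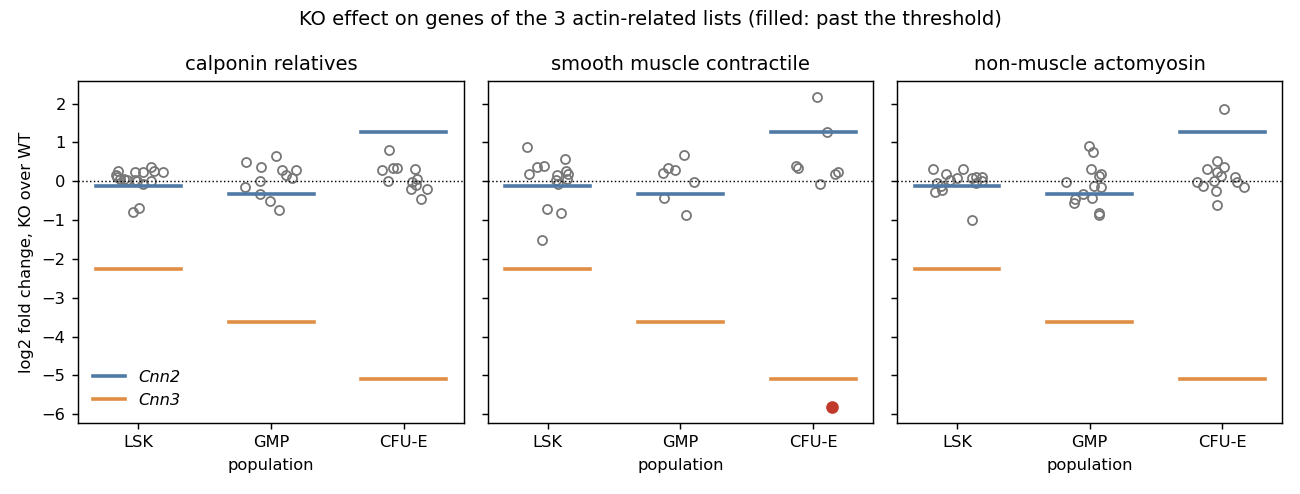
Log2 fold change of KO over WT for each tested gene of 3 lists, by population, with lines at the values of Cnn2 and Cnn3. Open points did not pass the threshold, and the 1 filled point is Synpo2 in CFU-E at −5.82; the other points lie above the Cnn3 line of their population.

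Genes beside the calponins on their chromosomes were tested in the same fits. Of the 10 nearest protein-coding genes around each member, 30 in all, 26 were tested for LSK, 17 for GMP and 20 for CFU-E, and edgeR called 0, beside 0.0793%, 1.45% and 1.06% of all genes, shares at which lists of this size would usually hold few or none. Unadjusted p-values under 0.05 numbered 3, 2 and 2, and DESeq2 and limma-voom called 0. Over all genes such p-values numbered 1392 of 17664 in LSK, 1789 of 9969 in GMP and 999 of 10170 in CFU-E. The 2 in CFU-E were both neighbours of Cnn3, with log2 fold changes of −0.38 and 1.01. Alg14, which lies directly before Cnn3 and encodes a subunit of an enzyme of N-glycan assembly, stood at 20.2 ± 2.04 CPM in LSK KO and 20.4 ± 1.11 CPM in LSK WT. In GMP it stood at 1.75 ± 1.45 CPM in KO and 2.92 ± 0.539 CPM in WT (log2 fold change −0.66, 95% interval −1.86 to 0.55). It stood at 5.36 ± 2.6 CPM in CFU-E KO and 4.48 ± 0.366 CPM in CFU-E WT. Slc44a3, directly after Cnn3, had at most 0.228 CPM in any LSK KO library and 0.326 CPM in any LSK WT library, had 1 count over all GMP libraries and was at 0 in every CFU-E library. For Cnn2, the neighbours ORF61 and Abca7 had log2 fold changes of −0.21 and −0.29 in CFU-E, and for Cnn1, Ecsit and Elof1 had −0.13 and −0.03. The lowest neighbour value was that of Elavl3, close to Cnn1 and named after its value was seen, with 0.0927 ± 0.0293 CPM in LSK KO and 0.44 ± 0.163 CPM in LSK WT (log2 fold change −2.21 ± 0.566, edgeR adjusted p = 0.286).

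**Figure D5:**
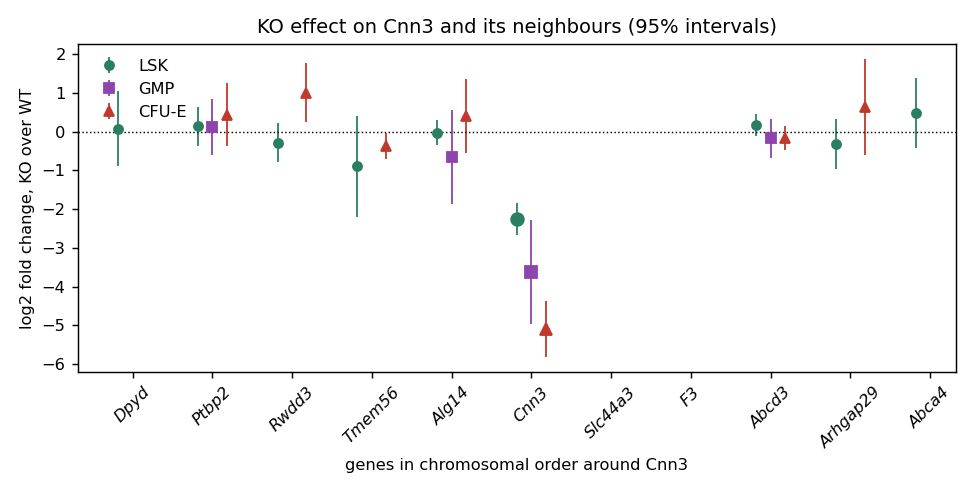
Log2 fold change of KO over WT with 95% intervals for Cnn3 and the 5 protein-coding genes on each side, in chromosomal order, in LSK, GMP and CFU-E. Genes without a point failed the low-count filter in that population; the Cnn3 points lie between −2.25 and −5.10 and the lowest of these neighbours is at −0.89.

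The pattern of Cnn3 over the 21 libraries, after the mean of each population was taken out, was compared with that of 7071 genes. Among the 6 most alike were Aplp2, an amyloid precursor-like protein (Pearson r 0.87), Cxcr4, the receptor for Cxcl12 (0.83), Pkig, an inhibitor of protein kinase A (0.82), Pdxp, pyridoxal phosphatase (0.82), and Grina (0.81). The lowest were Plek, pleckstrin of platelets and leukocytes (−0.85), and Lrrfip1 (−0.81). Stag2 had an r of 0.76, and Cnn2 had an r of −0.34 (Spearman rho −0.25), beside a median of −0.03 over all genes compared. These libraries share the genotype contrast, so the values describe likeness and carry no p. Aplp2 stood at 63.2 ± 17.4 CPM in LSK KO and 92.7 ± 23.4 CPM in LSK WT, at 12.8 ± 1.62 CPM in GMP KO and 35.7 ± 4.2 CPM in GMP WT, and at 150.4 ± 13.9 CPM in CFU-E KO and 381 ± 38.8 CPM in CFU-E WT. Its log2 fold changes were −0.55 for LSK, −1.46 for GMP and −1.42 for CFU-E, each smaller in size than that of Cnn3 in the same population. The LSK change of Aplp2 did not pass the threshold (edgeR adjusted p = 0.628). In LSK, Cxcr4, Pkig, Pdxp and Grina had log2 fold changes of −0.39, −0.15, −0.04 and −0.08, and none of these passed.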

How the data were processed

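Per the labels' protocols, lineage-depleted marrow was sorted and RNA was extracted with TRIzol. Reads were processed with STAR 2.4, HTSeq 0.6.1 and DESeq2 on mm9, per the submitters' processing notes; annotation and strand setting: not given in the sources used here. The authors deposited raw counts per gene, which were used as deposited. Each population was fitted alone with edgeR 4.0.16 (R 4.3.3; filterByExpr with a minimum count of 10, TMM, quasi-likelihood test, Benjamini-Hochberg over all genes tested), with a flow cell term for CFU-E. CPM are scaled by TMM. DESeq2 1.42.0, limma-voom 3.58.1, other filters, equal depth and left-out libraries were alternatives. Scripts were tested on simulated data. The family, lists and tests were chosen with earlier results of these data known. Named genes were the members, Stag2, list genes past the threshold (at most 4 per list and population, smallest p first), adjacent genes and the 6 most and 2 least like Cnn3. Gp5, Tubb1, Srf, Mylk, Cald1 and Elavl3 beyond this were named after their values were seen. One gene of the likeness ranking is not reported here. The lowest chi-square per degree of freedom between replicates was 4.03, so none was a duplicate.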

Additional observations from a re-analysis of the deposited data

Results flagged for a closer look

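The difference in the Cnn3 log2 fold change between LSK and CFU-E, 2.83 (LSK minus CFU-E), was singled out because its interaction term passed the threshold in the edgeR fit. It is a description and no independent test, since the family was selected on the same Cnn3 values, and the term no longer passed in 6 of 19 alternatives. The log2 fold change was −2.25 in LSK, where KO libraries still held 5.67 ± 0.979 CPM, and −5.10 in CFU-E, where they held 0.938 ± 0.419 CPM. The library kit differed between these populations and cannot be told apart from the population. Of 18 sets of library values checked for a single library far from the rest, 0 had one. With 3 or 4 libraries in a group, such a check can find little. Cnn2 in GMP KO library 4 stood at 100.5 CPM, the lowest of its group. Without that library the Cnn2 log2 fold change in GMP was −0.09, beside −0.33 with it.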

How the results depend on the processing

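Over 36 results and 416 alternatives, 372 kept their direction and their side of the threshold, or stayed close to the value. Cnn2 in LSK turned to 0.07 without both WT 2 and WT 4. Cnn3 in GMP moved to −4.23 without both KO 1 and KO 4, and fell below the filter after counts were thinned to equal depth, which gave no value. Cnn3 in CFU-E was −6.16 on the first flow cell alone and −6.15 to −4.75 with single libraries left out. Without the low-count filter, Cnn2 passed in CFU-E (1.26, edgeR adjusted p = 0.0119) and in CFU-E minus GMP (1.65, edgeR adjusted p = 0.00463). The cause of these shifts was not tested.

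Replicate numbers were checked as pairs: same-numbered libraries correlated between −0.183 and 0.254 and did not correlate best with their own number throughout, so the numbers were not taken to pair libraries. With a replicate block, Cnn3 in LSK minus CFU-E was 2.71 and no longer passed the threshold. In fits without the block it was 2.42 to 3.97 with single libraries left out. The block gave 0 genes called for LSK, 325 for GMP and 31 for CFU-E, and 0 smooth muscle genes in CFU-E.

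Against 14 genes called for LSK, 145 for GMP and 108 for CFU-E, DESeq2 called 342, 300 and 182, and no filter gave 38, 601 and 333. Single libraries left out gave 0 to 123, 38 to 211 and 22 to 143. Non-muscle actomyosin genes called numbered 1 in LSK and 1 in CFU-E by DESeq2, 2 in GMP and 2 in CFU-E without the filter, and 0 to 1 in LSK and 0 to 1 in CFU-E with single libraries left out. Smooth muscle genes numbered 1 in GMP and 3 in CFU-E without the filter, and 0 to 2 in CFU-E with single libraries left out. Counts of 0 to 7 for Cnn1, and of 0 to 2 for Cnn3 in GMP KO, limit any fold for them.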
